A study of Mus musculus with 8 samples.

Results

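The effect of MED1 loss was examined in LPS-activated peritoneal macrophages, by comparing the 2 libraries labelled macrophage MED1 knockout and treated with LPS with the 2 libraries of floxed controls given the same treatment. These are 4 of the 8 libraries of the series, and the members of the comparison are the loci of its expression table, of which 11272 of 23735 passed the filter on low values. The controls came from MED1 fl/fl mice and are called WT, as in the labels, and the knockout libraries, called KO, came from mice in which the floxed gene was deleted in macrophages (MED1ΔMac). Both genotypes were of strain C57BL/6J and 8 weeks old, and the macrophages had received LPS at 50 ng/mL for 6 h before total RNA was taken. The other 4 libraries, 2 WT and 2 KO without LPS, were used to estimate the spread between libraries and to ask whether the genotype difference depended on LPS. The libraries of each group are marked A and B. The labels do not say whether the letters stand for separate animals, so a p-value here measures a difference only against the spread between these libraries, which may be technical. The Cre driver, and so the cells besides macrophages in which the gene was deleted, is not given in the sources used here.

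MED1 is a subunit of Mediator, the complex that links transcription factors bound to DNA with RNA polymerase II, and it is the subunit best known for contacting ligand-bound nuclear receptors such as PPAR-gamma, the thyroid hormone receptor and the vitamin D receptor. LPS, a component of the outer membrane of Gram-negative bacteria, is sensed by TLR4 and activates NF-kB, AP-1 and interferon regulatory factors, which together turn on cytokine, chemokine and interferon-response genes. Macrophages also regulate what they do with arginine: Nos2 turns it into nitric oxide, and Arg1 turns it into ornithine and urea.

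Expression is given in RPKM, read number scaled to transcript length and library size, and pairs of values are given as library A and then library B. A difference is the mean of log2(RPKM + 1) in KO minus that in WT, with the standard error (SE) of the limma fit over all 8 libraries. On this scale the change of a gene with few reads is understated. Depth in the 4 LPS libraries was estimated at 6.8 to 10.9 M reads, so that a single read from a 1 kb transcript is worth 0.0913 to 0.147 RPKM. Across loci, which are not independent, log2 values of A against B gave r = 0.949 in WT and 0.966 in KO, both with LPS. The median difference over all 11272 loci was 0.05, and it ran from -0.10 without WT LPS B to 0.21 without WT LPS A. The 2 WT libraries differed widely in genes that LPS induces. Cxcl10, a chemokine of the interferon response, was at 16.5 and 547 RPKM in WT and 52.9 and 106 in KO, and the cytokine Il6 was at 106 and 2144 in WT and 484 and 2423 in KO. For Cxcl10 both KO libraries lay between the WT libraries, and for Il6 the groups overlapped, which limits what a comparison of such genes can show.

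Med1 itself, the targeted gene (chr11:98013468-98054607 in mm9), was at 24.7 and 21.6 RPKM in WT and 24.4 and 20.3 in KO with LPS. The groups overlapped, and the difference was -0.05 (SE 0.22, limma adjusted p = 1 after Benjamini-Hochberg correction). Without LPS, Med1 was at 21.7 and 24.8 RPKM in WT and 17.6 and 23.4 in KO. A value for the whole gene does not separate the floxed part of the transcript from the rest, and which exons were floxed is not given in the sources used here. These values therefore neither show nor check the deletion, and KO means the libraries labelled so.

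One locus passed the test, Arg1, which fell in KO. This is 1 of 11272 loci, or 0.00887%, at an adjusted p under 0.05 (limma with Benjamini-Hochberg correction). The next smallest adjusted p was 0.365. At an unadjusted p under 0.05 there were 498 loci (4.42%), of which 241 (2.14%) were higher and 257 (2.28%) lower in KO, where 5% of all loci would be 564. A second, descriptive measure counted loci whose 2 KO libraries both lay above, or both below, the 2 WT libraries with a mean difference of at least 1 on the log2 scale, called set apart from here on. By it 135 loci (1.2%) were set apart with KO higher and 131 (1.16%) with KO lower, of which 12 and 5 were small RNA loci. The same measure without LPS gave 18 loci (0.16%) higher and 29 (0.257%) lower, and of the loci set apart with LPS, 3 and 1 were set apart in the same direction without it. The standard deviation over loci of A minus B was 0.712 in untreated KO and 0.496 in untreated WT, beside 0.510 and 0.626 with LPS. A wide pair of libraries lowers such a count, so the counts with and without LPS do not compare the size of the genotype difference. With 2 libraries against 2, an exact permutation test of a single gene cannot go below p = 0.333, so a call rests on the spread pooled over loci.

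Arg1 encodes arginase 1, the cytosolic enzyme that hydrolyses arginine to ornithine and urea, and is a classical marker of alternatively activated macrophages. The gene lies at chr10:24635014-24647276 on the minus strand in mm9. Arg1 was at 325 and 425 RPKM in WT with LPS and at 11.5 and 12.4 in KO with LPS. Both KO libraries were far below both WT libraries, and the 2 KO libraries were close to each other. The means were 375 ± 70.9 (SD, n = 2) in WT and 12 ± 0.67 (SD, n = 2) in KO, a ratio of 31.4. The log2 difference was -4.85 (SE 0.27, 95% interval -5.48 to -4.22, limma adjusted p = 0.00261), and it was of like size in both letters, -4.71 in A and -4.99 in B. Leaving out KO LPS A raised the adjusted p to 0.0609, with a difference of -4.80. Without LPS, Arg1 was at 56.1 and 48.2 RPKM in WT and 22.8 and 36.9 in KO, a difference of -0.82 (SE 0.27, adjusted p = 1). Set side by side, the LPS libraries were above the untreated ones in WT and below them in KO. The genotype difference with LPS differed from that without by -4.03 (SE 0.38, limma adjusted p = 0.0284), a result that passed in 6 of 18 alternative settings, with adjusted p from 0.0159 to 0.246.

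No other gene of arginine use passed. Nos2, the inducible nitric oxide synthase that competes for the same substrate, was at 18.4 and 135 RPKM in WT and 27.3 and 36.3 in KO with LPS, so both KO libraries lay between the WT libraries. Arg2, the mitochondrial arginase, was at 64 and 95.5 in WT and 39.7 and 96.9 in KO. Slc7a2, the arginine transporter that LPS induces, was at 484 and 1178 in WT and 552 and 943 in KO. The differences of these 3 genes were -0.66 (SE 0.80), -0.33 (SE 0.48) and -0.07 (SE 0.44), and the groups overlapped in each. Ass1, which rebuilds arginine from citrulline, was at 185 and 298 in WT and 230.1 and 219.8 in KO, and Odc1, which makes the polyamine putrescine from ornithine, was at 34.7 and 78.3 and 34.6 and 79.1. Srm, the spermidine synthase of the next step, had a difference of 0.57 (SE 0.36), and Ddah2, which breaks down an inhibitor of nitric oxide synthases, one of -0.66 (SE 0.29). Of the 16 measured genes of arginine and polyamine metabolism, 1 passed and 10 had a difference above 0, and their median of 0.11 lay near the 0.05 of all loci.

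**Figure D1:**
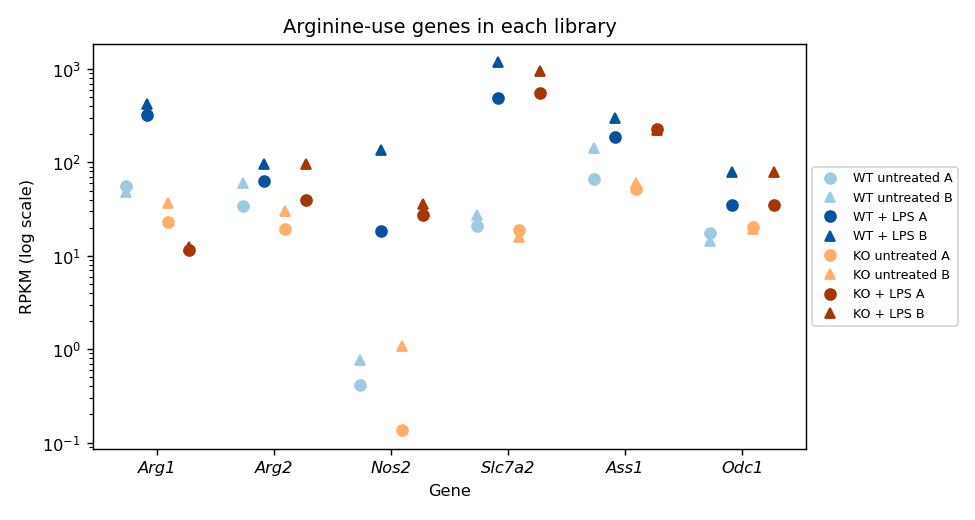
RPKM on a log axis of 6 genes of arginine use in each of the 8 libraries, with color for genotype and treatment and marker shape for letter. Arg1 is near 12 RPKM in both KO libraries with LPS and above 325 in both WT libraries with LPS, while the LPS groups of the other 5 genes overlap.

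The genes with the next smallest p among those lower in KO did not pass, and their values are given as a description. Gpr141, an orphan G protein-coupled receptor, was at 13.5 and 10.7 RPKM in WT and 2.42 and 2.76 in KO, a difference of -1.86 (SE 0.24, limma adjusted p = 0.36). P2ry6, the receptor for the nucleotide UDP, was at 22.9 and 14.4 in WT and 1.66 and 1.96 in KO, a difference of -2.77 (SE 0.38). Ccl6, a CC chemokine of mouse macrophages, was at 85.4 and 85.6 in WT and 26.3 and 19.8 in KO, a difference of -1.86 (SE 0.27). In all 3 genes the KO libraries lay close together and well below WT, which a choice by small p and no overlap favors. Without LPS the differences of the same 3 genes were 0.06, 0.19 and 0.22.

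Of the 8 others, 3 encode matrix or membrane proteins. Timp1, an inhibitor of matrix metalloproteinases, was at 47 and 96.9 RPKM in WT and 13.4 and 14.1 in KO (difference -2.21, SE 0.43). Dcn, the collagen-binding proteoglycan decorin, which is typical of fibroblasts, was at 9.05 and 8.83 in WT and 1.86 and 0.838 in KO (difference -2.12, SE 0.39). Cacna1d, a subunit of a voltage-gated calcium channel, was at 9.25 and 11.8 and 2.55 and 1.6. The next 2 genes act in energy stores. Dgat2, which makes triglyceride in the last step of its synthesis, was at 10.8 and 15.5 RPKM in WT and 0.607 and 3.13 in KO, where untreated libraries held 0.355 and 0.848 in WT and 0.281 and 0.65 in KO. Ppp1r3b, a glycogen-targeting subunit of protein phosphatase 1, was at 6.72 and 7.76 in WT and 2.83 and 2.3 in KO. The remaining 3 act in signaling or transcription. Mefv, which encodes the inflammasome sensor pyrin, was at 31.4 and 23.2 in WT and 11.8 and 9.2 in KO (difference -1.29, SE 0.23). Elk3, an ETS-family transcription factor, was at 35.5 and 28.8 and 11.6 and 13.8. The locus of Ppm1h, a protein phosphatase, was at 63.9 and 39.5 and 8.88 and 6.6, and it also carries the microRNA gene Mir8104, so that one value stands for both. Across these 11 genes the adjusted p ran from 0.36 to 0.84.

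No gene passed in the other direction. Rasgef1b, a Ras-family exchange factor known as an early LPS-induced gene, had the smallest p, at 29.3 and 20.7 RPKM in WT and 78 and 66.9 in KO, a difference of 1.52 (SE 0.24, limma adjusted p = 0.54). Usp18, which removes ISG15 from proteins and limits interferon signaling, was at 8.82 and 14.7 in WT and 34.1 and 25.1 in KO (difference 1.29, SE 0.27). Tnfsf4, the OX40 ligand that costimulates T cells, was at 4.65 and 4.21 in WT and 25.4 and 9.26 in KO (difference 1.60, SE 0.41). In Tnfsf4 the KO libraries differed from each other by more than the WT libraries did. Among transcription regulators, Myc was at 10.1 and 8.15 RPKM in WT and 18.8 and 16.2 in KO, and Ahr, the aryl hydrocarbon receptor, at 13.2 and 12.5 and 24.1 and 22.2. Irf4, a factor of B cells and some macrophages, was at 11.1 and 9.04 in WT and 30.5 and 20.4 in KO, and Mef2b, a factor of germinal center B cells, at 1.47 and 2.61 and 11.9 and 7.14. Several of the 12 genes are best known from lymphocytes. Blnk, an adaptor of B cell receptor signaling, was at 18.5 and 14.1 in WT and 43.1 and 32.5 in KO, and Lat, an adaptor of T cell receptor signaling that mast cells also use, at 1.98 and 0.892 and 9.12 and 5.68. Parvg, an actin-linked adhesion protein of blood cells, was at 12 and 7.88 and 21.4 and 18.5, Slc17a9, the vesicular nucleotide transporter, at 6.48 and 4.94 and 14.3 and 11.3, and Opn3, an opsin, at 3.29 and 5.21 and 10.2 and 15.5. The differences of the 12 genes ran from 0.80 to 1.79 and the adjusted p from 0.54 to 0.92.

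**Figure D2:**
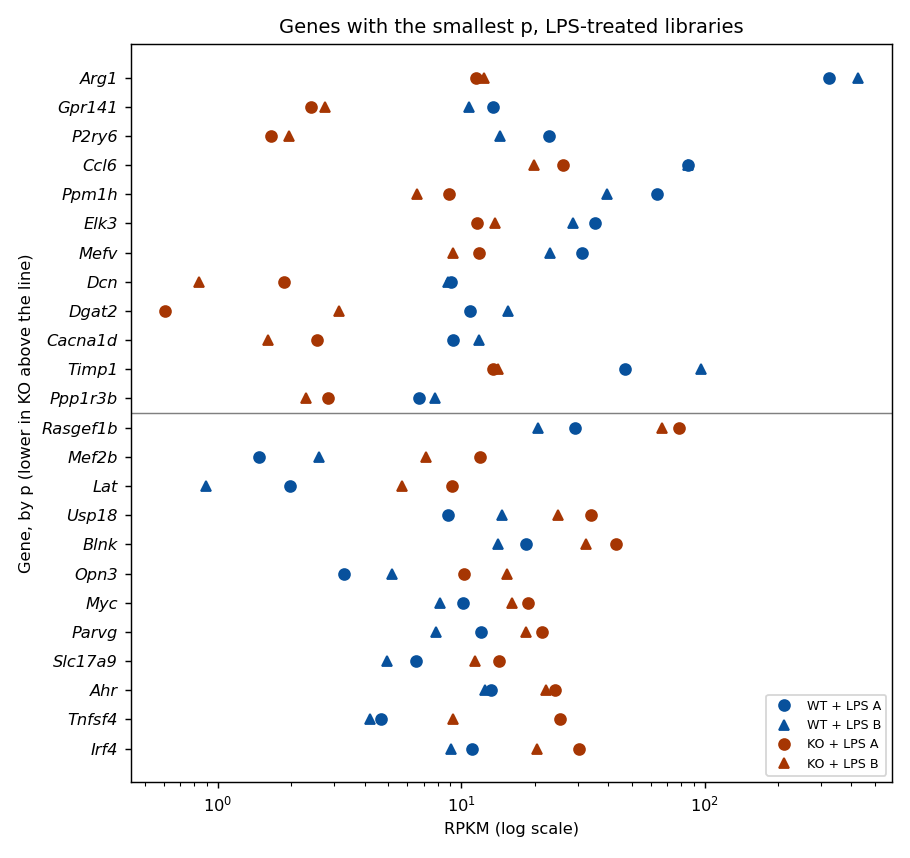
RPKM on a log axis, in the 4 LPS libraries, of the 12 genes with the smallest p that were lower in KO (above the line) and the 12 that were higher (below it). WT and KO do not overlap in any of the 24 because the genes were chosen so, and among them only Arg1 passed the test.

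Because MED1 binds nuclear receptors, the promoters of these 24 genes were searched for the nuclear receptor half-site AGGTCA on both strands, in the 250 bases before the gene start. Promoters were taken from RefSeq on build GRCm38.p6, in which 7 of the 12 lower and 7 of the 12 higher genes were matched by symbol. The half-site was found in 2 of the 7 lower genes (Ccl6 and Ppm1h) and in 1 of the 7 higher genes (Blnk), against 13.8% of 27025 promoters. A C/EBP pattern (TTGCNNAA, in 9.6% of all promoters) and an AP-1 pattern (TGANTCA, in 6.9%) were found in none of the 14, and the hypoxia response core ACGTG (16.6%) was found in Timp1 and Lat. Shown are the 3 promoters with a half-site, 5′ to 3′ toward the gene start, with the half-site on either strand in capitals. The windows are chr11:83593088-83593337 on the minus strand, chr10:122678512-122678761 on the plus strand and chr19:40994222-40994471 on the minus strand. Ccl6 and Blnk hold the half-site in reverse, as TGACCT, and Ppm1h holds it 2 times in the forward direction. A match describes the letters and not binding.
Ccl6: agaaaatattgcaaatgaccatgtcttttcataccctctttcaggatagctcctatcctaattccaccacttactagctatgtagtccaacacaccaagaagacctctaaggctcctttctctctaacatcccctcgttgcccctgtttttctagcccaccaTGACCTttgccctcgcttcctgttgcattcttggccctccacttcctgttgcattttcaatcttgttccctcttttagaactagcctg
Ppm1h: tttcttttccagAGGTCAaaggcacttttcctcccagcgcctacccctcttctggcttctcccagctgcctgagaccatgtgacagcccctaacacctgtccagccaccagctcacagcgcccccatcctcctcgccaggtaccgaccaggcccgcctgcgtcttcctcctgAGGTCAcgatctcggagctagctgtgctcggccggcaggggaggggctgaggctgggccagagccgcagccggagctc
Blnk: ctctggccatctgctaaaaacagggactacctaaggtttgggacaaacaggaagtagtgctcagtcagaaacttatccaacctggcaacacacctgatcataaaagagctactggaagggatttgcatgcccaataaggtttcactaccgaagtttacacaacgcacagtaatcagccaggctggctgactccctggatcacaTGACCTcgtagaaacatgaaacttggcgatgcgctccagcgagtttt

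Since the letters may mark libraries that belong together, the genotype difference was also read within each letter. Across the 11272 loci the difference in A and that in B, which share no library, correlated at r = 0.296 (Spearman's rho 0.340), as a description over loci that are not independent. The standard deviation of the difference over loci was 0.524 in A and 0.528 in B, beside one of 0.626 between A and B in WT and 0.510 in KO. Both of these pairs of libraries cross letters, and across letters the genotype difference had a standard deviation of 0.665 (KO A against WT B) and 0.611 (KO B against WT A). Of all loci, 3933 had a difference above 0 in both letters and 2578 below 0 in both. Small RNA loci aside, Arg1 lay apart from all other loci named here, at -4.71 and -4.99. Among the small RNA loci, Snord35b had a difference of 6.46 and Snora43 one of -4.65, and neither passed in the main fit.

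**Figure D3:**
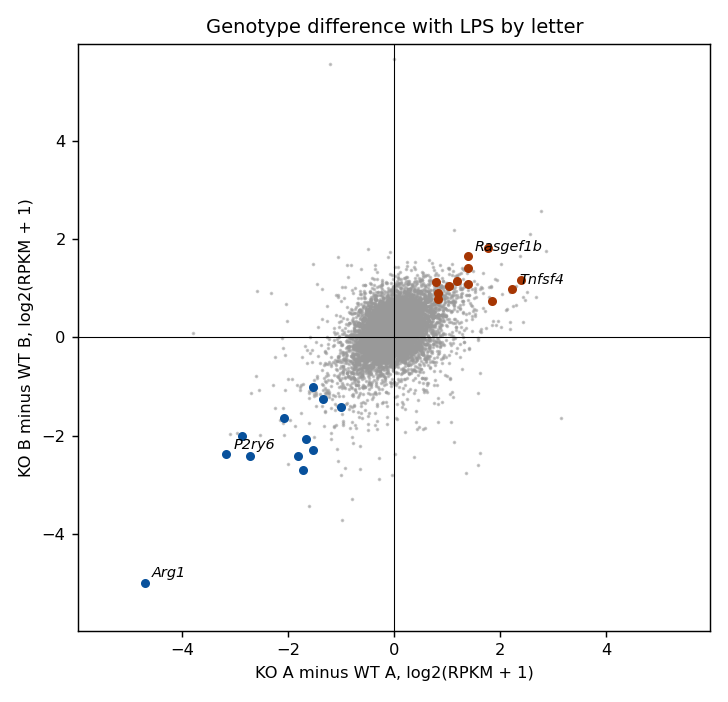
Difference between KO and WT with LPS in log2(RPKM + 1), in letter A (horizontal) and in letter B (vertical), for each locus tested other than small RNA loci (gray), with the 12 lower genes in blue and the 12 higher genes in brown. Arg1 lies at -4.71 and -4.99, and the gray loci correlate weakly.

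The inflammatory genes that LPS induces were described by lists, each beside all loci, of which 1.2% were set apart with KO higher and 1.16% with KO lower. No cytokine passed. Tnf, the first cytokine of the LPS response, was at 115 and 436 RPKM in WT and 680.3 and 1881 in KO, a difference of 2.33 (SE 0.70, limma adjusted p = 0.99). The KO libraries were above both WT libraries, but the letters within each genotype differed by more than 2-fold. Il27, which limits T cell responses, was at 6.18 and 32.9 in WT and 39.9 and 63.2 in KO, and Il33, an alarmin, at 1.97 and 4.004 in WT and 0.343 and 0.419 in KO, the largest difference among the cytokines below 0 (-1.48, SE 0.30). Il33, the only cytokine set apart lower, reached 1 RPKM only in the WT libraries with LPS. It passed the filter through them, so its lower value in KO is partly fixed by the filter. Il1b was at 2693 and 11511 in WT and 4257 and 9859 in KO, Il12b at 8.05 and 66.7 and 21.5 and 56.1, and the anti-inflammatory Il10 at 1.56 and 3.22 and 4.9 and 5.51. Il1b, Il12b and Il6 overlapped between the groups. Of 26 cytokines, 19 had a difference above 0, 3 were set apart higher and 1 lower, and the median was 0.54. That median ran from -0.48 without WT LPS A to 1.17 without WT LPS B, so its sign rests on the WT library kept.

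The 23 chemokines had a median of 0.20 (-0.68 without WT LPS A to 0.81 without WT LPS B), with 2 set apart higher and 3 lower. Cxcl13, which draws B cells and is made by large peritoneal macrophages, was at 65.4 and 110.1 RPKM in WT and 20.7 and 9.39 in KO (difference -2.52, SE 1.35). Cxcl1, which draws neutrophils, was at 538 and 4416 in WT and 2449 and 8336 in KO, and Ccl5 at 312 and 1379 and 454 and 1304. Cxcl9, another chemokine that interferon induces, was at 1.3 and 36.2 in WT and 0.328 and 2.81 in KO. Both Cxcl9 and Cxcl10 were far higher in WT LPS B than in WT LPS A.

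Among 40 interferon-response genes, 31 had a difference above 0 and 10 were set apart higher, with none set apart lower. The median was 0.42 with LPS and 0.59 without. It was 1.04 in letter A and -0.11 in letter B, and it ran from 0.08 without WT LPS A to 0.86 without WT LPS B. Rsad2, which encodes the antiviral protein viperin, was at 7.74 and 21.9 RPKM in WT and 46.2 and 39.6 in KO (difference 1.63, SE 0.44). Mx1, an antiviral GTPase, was at 5.46 and 12.5 in WT and 34.8 and 21.9 in KO, and Ifit2, which blocks translation of viral RNA, at 3.08 and 9.62 and 25.1 and 17.9. In each of these 3 genes WT LPS A was the lowest library. Iigp1, a GTPase that interferon-gamma induces, was at 8.76 and 265 in WT and 8.42 and 37 in KO, with the groups overlapping. An unadjusted p under 0.05 was found for 11 of the 40, beside 4.42% of all loci, and none passed the adjusted test.

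The 30 genes of LPS sensing and Toll-like receptor signaling centered on 0.02. Tlr8, an RNA sensor, was at 56.3 and 18 RPKM in WT and 7.81 and 7.64 in KO (difference -1.92, SE 0.46), Tlr2 at 489 and 459 and 251 and 228, and Tlr9, a DNA sensor that B cells also express, at 7.54 and 6.64 and 17.3 and 11.7. The LPS co-receptor Cd14 was at 1666 and 3677 in WT and 1194 and 2164 in KO, with overlap. The 33 genes of NF-kB and its feedback had a median of 0.16 (-0.18 without WT LPS A to 0.31 without WT LPS B). Cd40 was at 51.8 and 133 RPKM in WT and 145 and 208 in KO, and Dusp4, a phosphatase that turns off MAP kinases, at 6.29 and 7.86 and 14.8 and 16.4. Ikbke, a kinase that activates interferon regulatory factors, was at 89 and 128 and 44.3 and 71.5, and Socs3, an inhibitor of cytokine signaling, at 288 and 613 and 208 and 275. The 22 AP-1 and immediate early genes had a median of 0.33 with no member set apart. Maff, a small partner of AP-1 and NRF2 factors, was at 22.4 and 53.8 in WT and 52.2 and 78.5 in KO.

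Among 27 microbicidal, prostaglandin and acute-phase genes, 20 had a difference below 0, the median was -0.22 and 2 were set apart, both lower in KO. Lyz2, lysozyme M, was at 17329 and 13230 RPKM in WT and 5111 and 4547 in KO with LPS, a difference of -1.65 (SE 0.42, limma adjusted p = 0.92). Without LPS it was at 28588 and 32317 in WT and 8502 and 15001 in KO, a difference of -1.43, which also did not pass, and both KO libraries were below both WT libraries there too. Lyz2 is also the gene into which the Cre of a widely used macrophage deleter strain is inserted, which disrupts that allele. With the driver of these mice unnamed, the part of such an insertion in the Lyz2 values cannot be told apart from that of MED1 loss. Its near copy Lyz1 was at 1534 and 698 in WT and 957 and 1128 in KO with LPS, and reads of the 2 genes may have been divided between them. Saa3, an acute-phase protein of macrophages and the other member set apart, was at 38574 and 47097 in WT and 12572 and 22081 in KO. Lcn2, which withholds iron from bacteria, was at 126 and 271 and 42.4 and 129. Ptgs2, the inducible cyclooxygenase, was at 386 and 1690.0 in WT and 1101 and 2951 in KO, and Irg1, which makes itaconate, at 957 and 2120.3 and 1182 and 1604. Mmp3, a matrix protease, was at 95.3 and 289.8 and 166 and 354, and Upp1, uridine phosphorylase, at 122 and 219 and 95.2 and 113.

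Arg1 also belongs to the 24 measured genes of alternative activation, which had a median of -0.10 (-0.50 without KO LPS A to -0.21 without KO LPS B), with 2 set apart higher and 4 lower. Its partners in the list lay on both sides of 0. Chil3, a chitinase-like protein, was at 17.2 and 77.2 RPKM in WT and 10.6 and 16 in KO, and Stab1, a scavenger receptor, at 11 and 4.34 and 1.45 and 1.71. Clec10a, a lectin, was at 4.73 and 2.94 and 1.64 and 0.418, and the mannose receptor Mrc1 at 3.65 and 3.29 and 1.93 and 1.76. These 4 genes had differences from -1.64 to -0.65. Retnla, which IL-4 induces strongly together with Arg1, lay the other way, at 19 and 32.5 in WT and 56.7 and 62.7 in KO (difference 1.23, SE 0.67).

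Nuclear receptor targets were read by pathway. Pparg itself was low in all 4 LPS libraries, at 0.593 and 0.397 RPKM in WT and 0.429 and 0.208 in KO. Its known targets in macrophages include fatty acid binding proteins and the fatty acid transporter Cd36. Fabp4 was at 113 and 189 in WT and 280.2 and 318 in KO (difference 1.02, SE 0.32), and Fabp3 at 56.6 and 106 and 159.6 and 154 (difference 1.01, SE 0.36), with KO above WT in both. Cd36 was at 550.3 and 209 in WT and 593 and 524 in KO, and Lpl, the lipoprotein lipase, at 178 and 66.8 and 507 and 149. The 31 genes of PPAR targets and fatty acid oxidation had a median of 0.02 (-0.28 without WT LPS B to 0.35 without WT LPS A), and none passed.

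LXR target and cholesterol export genes were set apart in both directions. Apoe, which carries exported lipid, was at 4638 and 5284 RPKM in WT and 1968 and 2431 in KO (difference -1.18, SE 0.45). Its neighbors in one gene cluster are Apoc1, at 27.7 and 42.8 in WT and 7.32 and 19.8 in KO, and Apoc2, at 47.7 and 20.8 and 6.93 and 11.6. All 3 apolipoprotein genes had both KO libraries below both WT libraries, and none passed. Abca1, the cholesterol exporter, was at 151 and 137 in WT and 78.6 and 67 in KO (difference -0.97, SE 0.29). Ch25h, which makes 25-hydroxycholesterol, was at 10.9 and 37.6 in WT and 11 and 6.42 in KO, and Lipa, the lysosomal acid lipase, at 177 and 98.5 and 266 and 237. Over all 26 genes of the list the median was -0.06 (-0.46 without KO LPS A to 0.01 without KO LPS B), with 1 set apart higher and 3 lower. Sterol and fatty acid synthesis genes (28 measured) had a median of 0.13 and none set apart.

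Glycolysis and hypoxia genes lay mostly below 0, in 25 of 37, with a median of -0.21 (-0.37 without WT LPS B to -0.09 without KO LPS B), beside -0.20 without LPS. In 23 of them the difference was below 0 in both letters, beside 2578 of all 11272 loci, and 8 had an unadjusted p under 0.05, beside 4.42% of all loci. Of the list, 4 genes were set apart lower and 1 higher. Hif1a, the oxygen-regulated factor that drives these genes, was at 182 and 210.0 RPKM in WT and 68.1 and 145 in KO (difference -0.97, SE 0.35). Its targets Bnip3, at 34 and 16.6 in WT and 12.8 and 7.41 in KO, and Egln3, at 11.1 and 4.09 and 3.66 and 1.62, were set apart lower. Slc16a3, the lactate exporter, was at 77.1 and 48.7 and 33.2 and 17.4, and Ankrd37 at 14.6 and 4.49 and 5.06 and 1.08. The gene set apart higher was Adm, which encodes the vasodilator peptide adrenomedullin, at 5.55 and 9.59 in WT and 14.4 and 20.1 in KO (difference 1.11, SE 0.38). None of these genes passed.

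NRF2 target and antioxidant genes lay the other way, with a difference above 0 in 19 of 23 and a median of 0.43 (0.42 without WT LPS A to 0.52 without KO LPS B), where the untreated libraries had a median of -0.45. Gsta3, a glutathione transferase, was at 18 and 24.8 RPKM in WT and 44 and 53.9 in KO, Nqo1, a quinone reductase, at 47.2 and 55.7 and 122 and 71.2, and the peroxiredoxin gene Prdx1 at 4147 and 4481 and 7492 and 7269.8. Srxn1, which repairs peroxiredoxins, was at 253 and 316 in WT and 516 and 467 in KO. In all 4 genes both KO libraries were above both WT libraries. Without LPS the letters disagreed in these 4 genes, with KO above WT in A and below it in B. Nqo1, for example, was at 60 and 140 RPKM in WT and 83.7 and 31.6 in KO without LPS. Lysosome genes had a difference above 0 in 37 of 45, with a median of 0.31 (-0.05 without WT LPS B to 0.74 without WT LPS A). Atp6v0d2, a subunit of the proton pump that acidifies lysosomes, was at 12.3 and 4.29 in WT and 33.4 and 15.9 in KO, and Atp6v1h, another subunit, at 97.8 and 72.1 and 181 and 145. All 79 measured ribosomal protein genes had a difference above 0, but a small one, with a median of 0.26, none set apart and none with an unadjusted p under 0.05, beside 58.9% of all loci above 0. The medians of oxidative phosphorylation (78 genes, 0.11), the Krebs cycle (24 genes, 0.09) and the unfolded protein and stress responses (30 genes, 0.13) were close to 0.05, the median of all loci, with no member set apart.

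Receptors for uptake of particles and dead cells included 5 of 28 set apart lower and 0 higher, with a median of -0.31 (-0.60 without KO LPS A to 0.12 without WT LPS A). Fcgr3, a low-affinity receptor for IgG, was at 231 and 328 RPKM in WT and 133 and 123 in KO (difference -1.10, SE 0.23), and Fcgr1, the high-affinity one, at 5.73 and 4.63 and 1.93 and 0.455. Itgb5, an integrin subunit that binds dying cells through a bridging protein, was at 6.94 and 6.15 in WT and 1.76 and 2.12 in KO. Complement and coagulation genes (26) had a median of -0.50 (-0.55 without WT LPS A to -0.25 without KO LPS B). The complement inhibitor Serping1 was at 68.1 and 77.9 RPKM in WT and 21.7 and 32.8 in KO, and F13a1, a clot-stabilizing enzyme, at 21.1 and 6.3 and 4.25 and 2.47. Thbs1, thrombospondin 1, was at 1709 and 3913 and 724 and 1693, and Plau, urokinase, lay the other way at 23.4 and 16.8 and 54.4 and 31.2. Matrix, protease and TGF-beta genes (26) had a median of -0.31. Beside Timp1, Tgfbi, an adhesion protein that TGF-beta induces, was at 30.8 and 6.64 in WT and 4.48 and 0.921 in KO, and the elastase Mmp12 at 344 and 307 and 826 and 549. Costimulation and antigen presentation genes (29) had a median of 0.27, with 3 set apart higher. Of these 3, Tnfsf18, the GITR ligand, was at 1.19 and 1.48 in WT and 6.67 and 3.03 in KO. Cd274, the inhibitory ligand PD-L1, was lower in KO and not set apart, at 197 and 337 in WT and 134 and 166 in KO.

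The other subunits of Mediator differed little. Of 32 measured genes of the complex and its kinase module, none was set apart, the median was 0.00 (-0.12 without WT LPS B to 0.11 without WT LPS A), and the differences ran from -0.34 to 0.43. The largest were those of Med30 (0.43), Med28 (0.36), Med21 (-0.34) and Med14 (-0.32). Med14, the backbone subunit, was at 13 and 18.3 RPKM in WT and 12.2 and 12.2 in KO. The 38 nuclear receptors and their coregulators had a median of -0.04 with none set apart. Rarg, a retinoic acid receptor, was at 18 and 8.03 in WT and 7.02 and 5.23 in KO, Vdr, the vitamin D receptor, at 1.06 and 1.55 and 0.257 and 0.314, and Nr1d1, the circadian repressor REV-ERB-alpha, at 16.1 and 28.7 and 11.7 and 19.4. Vdr was near the filter limit and reached 1 RPKM only in the WT libraries with LPS. It passed the filter through them, so its lower value in KO is partly fixed by the filter. Of 26 transcription factors of macrophages, 21 had a difference below 0 (median -0.20). Bhlhe41, one of the list's members above 0, was at 19.3 and 6.31 RPKM in WT and 36 and 19.3 in KO. Gata6, the defining factor of large peritoneal macrophages, was even, at 4.21 and 4.04 in WT and 3.77 and 3.59 in KO (difference -0.13, SE 0.24). The 35 cell cycle genes had a median of 0.05 and none set apart.

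**Figure D4:**
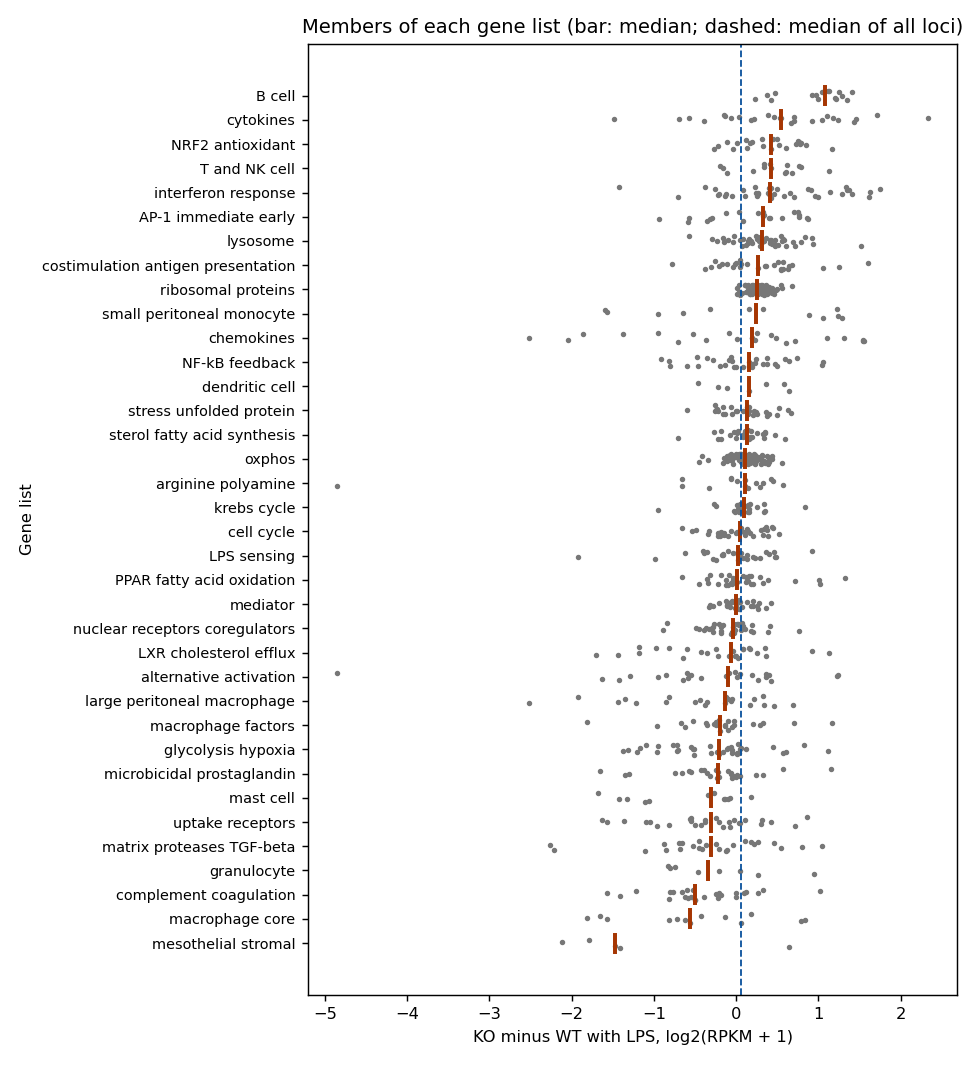
Difference between KO and WT with LPS, in log2(RPKM + 1), of each measured member (points) of the lists with at least 5 measured members, with each list's median as a bar and the median of all loci, 0.05, as a dashed line. B cell markers lie highest with a median of 1.08, and the list of mesothelial and stromal markers lowest with -1.48. No mesothelial marker passed the filter, so the lowest median rests on 5 other members of that list. Arg1, a member of 2 lists, is the point below -4 in each.

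Markers of cell types were read in the same way, since the samples are bulk RNA of cells from the peritoneal cavity, in which fewer cells of a type and less RNA per cell cannot be told apart. The macrophage label matched the data: 13 macrophage markers were measured, and Cd68 was at 522 and 222 RPKM in WT and 748 and 499 in KO. Over these markers the median difference was -0.56, with 3 set apart lower, among them Lyz2 and Fcgr1, and 9 below 0. Their summed level was 25120 and 20390 RPKM in WT and 12310 and 10900 in KO. Without Lyz2 it was 7795 and 7163 in WT and 7202 and 6351 in KO, where the groups overlapped. B cell markers had a difference above 0 in 16 of 16 measured, with a median of 1.08 (0.98 without WT LPS B to 1.15 without WT LPS A), and 9 were set apart. Ms4a1, which encodes CD20, was at 193 and 129.5 RPKM in WT and 501 and 324 in KO. Bank1, a signaling scaffold of B cells, was at 33.4 and 28.1 in WT and 79.4 and 70 in KO, and Pou2af1, a B cell coactivator, at 41.4 and 27.7 and 117 and 71.7. The summed level of the list was 742 and 524 RPKM in WT and 1695 and 1273 in KO with LPS, and 794 and 727 in WT and 726 and 2172 in KO without. The part of B cell RNA in the higher values of Blnk, Irf4, Mef2b and Tlr9 was not tested.

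Large peritoneal macrophage markers (23) had a median of -0.13, with 5 set apart lower, among them Selp, P-selectin, at 11.4 and 7.52 RPKM in WT and 1.89 and 1.54 in KO. Markers of small peritoneal macrophages and monocytes (12) had a median of 0.24, with 4 set apart higher and 2 lower. Of 17 mesothelial and stromal markers, 5 passed the filter and 4 were set apart lower. These are Dcn and the collagen genes Col1a1 (1.55 and 3.92 in WT, 0.454 and 0.217 in KO), Col1a2 (2.005 and 3.03 and 0.359 and 0.154) and Col3a1 (4.43 and 5.3 and 1.61 and 0.101). Col1a1 reached 1 RPKM only in WT libraries, and Col1a2 reached it in KO only in untreated library B (1.03). Both passed the filter through WT libraries, so their lower values in KO are partly fixed by the filter. The other measured member, Pecam1, had a difference of 0.64. The summed level of all 17 was 25 and 34 RPKM in WT and 18.2 and 18.5 in KO, and the mesothelial markers Msln, Upk3b and Krt19 were below 1 RPKM in all 8 libraries. The part of stromal RNA in the lower values of Dcn and Timp1 was not tested. T and NK cell markers (15) had a median of 0.42 (-0.22 without KO LPS B to 1.10 without KO LPS A), and Cd2, which B cells also express in mice, was at 15.1 and 15.4 in WT and 38.1 and 31.3 in KO. Mast cell markers (12) were higher in letter B in both genotypes, with a summed level over all 13 in the table of 114 and 418 RPKM in WT and 51.4 and 197 in KO. The chymase gene Cma1 was at 7.96 and 22 in WT and 1.22 and 11.8 in KO, the tryptase gene Tpsab1 at 1.33 and 16.8 and 0.0996 and 2.68, and Hdc, which makes histamine, at 85.3 and 310.0 and 47.6 and 118. Hdc alone held most of the summed level in each LPS library, so that sum mainly follows 1 gene. Without LPS, Hdc was at 9.32 and 3.12 RPKM in WT and 5.56 and 16.5 in KO. Granulocyte (8), platelet and red cell (3) and dendritic cell (7) markers had medians of -0.34, -0.68 and 0.15 and none set apart. The 3 were Pf4, Ppbp and a locus that Gp1bb shares with another gene, and no red cell marker passed the filter. The -0.68 is the value of the Gp1bb locus. That locus reached 1 RPKM only in WT libraries, so its lower value in KO is partly fixed by the filter. The granulocyte markers Ngp and Ear1 and the red cell marker Slc4a1 were listed at 0 in all 8 libraries, but other members of their lists were not. The summed level of the granulocyte list was 386.5 and 278.9 RPKM in WT and 305.7 and 254.7 in KO with LPS. The hemoglobin locus Hbb-b1/Hbb-bs was at 45.9 RPKM in untreated WT library B and at 0 in the other libraries.

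Whether the genotype difference depended on LPS was tested with the interaction, the difference with LPS minus that without. It was called at 4 of 11272 loci (0.0355%), beside 3 (0.0266%) for KO against WT without LPS. Arg1 is the only one of the 4 that was measured above 0 with LPS, and the other 3 are microRNA loci listed at 0 in all 4 LPS libraries. The same 3 microRNA loci are those called without LPS. Each passed the filter through a single untreated group, so these calls are partly fixed by the filter. At an unadjusted p under 0.05 the interaction gave 184 loci, the untreated comparison 94. Over the 24 genes with the smallest p with LPS, the untreated differences ran from -0.82 (Arg1) to 0.22 (Ccl6) among the 12 lower genes, and from -0.60 (Tnfsf4) to 1.05 (Lat) among the 12 higher ones. Lat was at 4.83 and 2.86 RPKM in WT and 8.67 and 9.03 in KO without LPS, and Tnfsf4 at 2.58 and 3.21 and 1.86 and 1.29. P2ry6 was at 17.5 and 8.15 in WT and 11.5 and 16.5 in KO without LPS, where the groups overlapped, and its interaction of -2.96 (SE 0.54) did not pass. Across all loci the differences with and without LPS, which share no library, correlated at r = 0.157 (Spearman's rho 0.241), as a description.

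**Figure D5:**
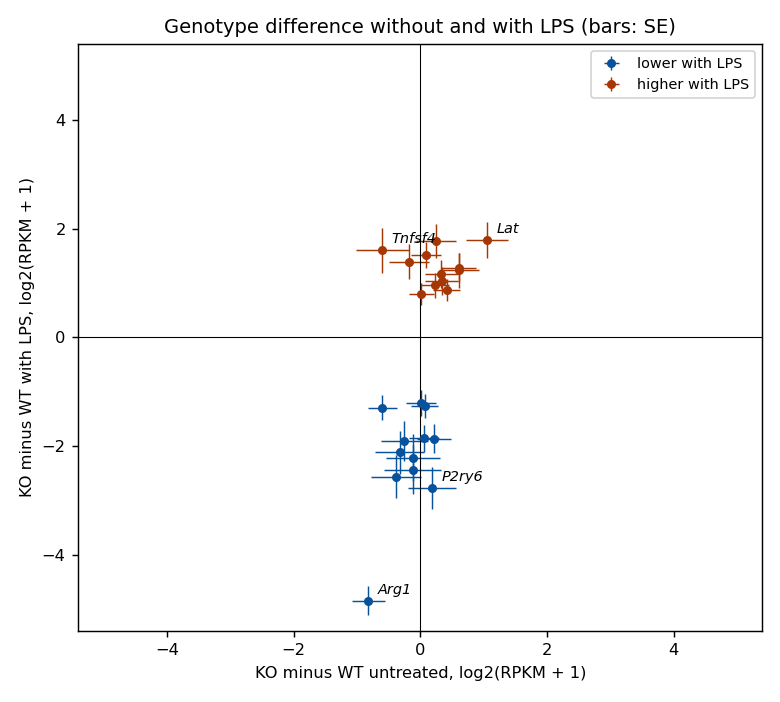
Difference between KO and WT in log2(RPKM + 1) without LPS (horizontal) and with LPS (vertical) for the 12 lower and 12 higher genes, with SE bars. Arg1 lies at -0.82 and -4.85, and most other genes are near 0 without LPS, while the vertical spread follows from how the genes were chosen.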

How the data were processed

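Total RNA of mouse peritoneal macrophages was sequenced in 8 libraries. Per the submitters' processing notes, the tools were bcl2fastq, TopHat2 2.0.14 and Cufflinks 2.2.1, on mm9. The gene annotation and the strand setting are not stated there. The authors deposited 1 table of RPKM in 24192 lines, of which 457 are second entries of a locus with equal values, leaving 23735 loci. All sample columns were used. Read counts were not used here. Depth was inferred from the spacing of low RPKM values, at 14.0 M reads for the deepest library (quartiles 12.9 and 14.7) over 416 loci with 1 transcript in GENCODE vM1 on the same build, which also gave positions.

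The filter asked for 1 RPKM or more in 2 or more of the 8 libraries, and the 11272 loci that passed were analysed as log2(RPKM + 1) in R 4.3.3 with limma 3.58.1, with 1 mean per group, moderated variances with a trend and two-sided tests. Calls were made at an adjusted p under 0.05 by the Benjamini-Hochberg method. The fit was tested on simulated data. Letters A and B were checked for pairing: deviations of the libraries from their group means correlated by letter at 0.20 to 0.41 in all 6 pairs of groups, so the letter was used as a block in an alternative. Alternatives also covered scaling, pseudocount, filter, variance model, small RNA loci, the libraries in the fit and leaving out each library.

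The members, the 37 gene lists and the naming rule were set with earlier results of these data known. The rule took Med1, called genes, the genes with the smallest p and no overlap between the LPS groups up to 12 in each direction (at least 5 RPKM in the higher group), the 4 most different members of each list, a fixed set of macrophage genes, and loci called in the interaction. Some of these are left out of the text. Arg2, Slc7a2, Ass1 and Odc1 fall outside the rule and were named as members of the arginine list after their values were seen. Figures were made in Python 3.11.15 with matplotlib 3.10.9.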

Additional observations from a re-analysis of the deposited data

Results flagged for a closer look

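The genotype difference with LPS differed from that without at 4 loci, by the interaction term of the limma fit with Benjamini-Hochberg correction over 11272 loci. Arg1 had an interaction of -4.03 (adjusted p = 0.0284), from a difference of -0.82 without LPS and -4.85 with it, and its values stand in the report. Mir5133 had an interaction of 6.48. It was at 96.5 and 80.7 RPKM in the untreated WT libraries and listed at 0 in the other 6. Mir3473e had one of 4.70, with 27.4 and 22.9 RPKM in untreated WT and 0 in the other 6 libraries. Mir1894 had one of -6.10, with 48.5 and 93.8 RPKM in untreated KO and 0 in the other 6. These 3 microRNA loci are short, so that few reads give a high RPKM, and they were named after their values were seen. Without small RNA loci in the fit, no locus had an interaction that passed, and the adjusted p of Arg1 was 0.0802.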

How the results depend on the processing

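Under 19 alternatives the log2 difference of Arg1 with LPS stayed between -5.04 and -4.48 and passed in 18 (limma adjusted p 0.00155 to 0.0609). It missed the threshold only without KO LPS A. With the letter as a replicate block, 1 locus was called with LPS, as in the unblocked fit, 0 higher and 1 lower, and the block changed none of the counts of calls by over 1.5 times. The count with LPS was 2 with no filter, both lower (Arg1 and the serotonin receptor Htr7). It was 4 with only the LPS libraries, 2 higher (Mir7-1 and Snord35b) and 2 lower (Arg1 and Snora43). With 1 library left out it ran from 0 to 6 (0 to 5 higher, 0 to 2 lower), being 0 without KO LPS A and 6 without WT LPS A, and the added loci all carry a small RNA gene. A group left with 1 library is assumed to vary like the others. The interaction count was 0 with a pseudocount of 0.1, with a filter of 5 RPKM and without small RNA loci, and 1 to 7 with 1 library left out. The untreated count was 0 without small RNA loci and 3 to 5 with 1 library left out. The alternatives for the interaction of Arg1 alone were chosen after seeing the data. Its value stayed between -4.37 and -3.69.

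Of 125 named genes, 109 kept their direction in all alternatives run. Odc1 turned to -0.0684 with median-ratio scaling and -0.00805 with quantile normalization, and Lyz1 to -0.0692 and -0.19. The other reversals came from leaving out 1 library, and the cause was not tested. The log2 ranges were Med1 -0.18 to 0.0733, Med30 -0.0613 to 0.92, Arg2 -0.96 to 0.31, Nos2 -2.07 to 0.75, Ass1 -0.40 to 0.28, Slc7a2 -0.71 to 0.57, Odc1 -0.58 to 0.59, Il6 -0.99 to 3.33, Il1b -0.83 to 1.27, Il12b -0.92 to 1.99, Cxcl10 -2.85 to 2.12, Ccl5 -0.84 to 1.30, Iigp1 -3.81 to 0.96, Irg1 -0.62 to 0.52, Mmp3 -0.26 to 1.34, Lyz1 -0.56 to 0.57. With 6.8 to 10.9 M estimated reads and 2 libraries a group (median SE 0.27), small differences were not detectable.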
